A study of Mus musculus with 35 samples.

Results

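Transcripts of 8 secreted astrocyte proteins that act on synapses were followed in astrocytes sorted from mouse cortex after systemic inflammation. The 8 genes were Sparc, Sparcl1, Thbs3, Thbs4, Gpc4, Gpc5, Gpc6 and Chrdl1, chosen by name from 19573 genes in the expression table, by a rule that uses no measured value, though earlier results of these data were known when the set was proposed. All 8 passed the filter on low values. The unit is FPKM, sequenced fragments scaled to transcript length in kilobases and to the mapped fragments of the library, so that levels of different genes can be set side by side per length.

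Astrocytes secrete proteins that start, strengthen or limit synapses on neighbouring neurons. Hevin (Sparcl1) and the thrombospondins promote the formation of excitatory synapses, SPARC opposes hevin in culture, and glypicans carry heparan sulfate chains and bring AMPA-type glutamate receptors to young synapses. Chordin-like 1 (Chrdl1) is a secreted antagonist of bone morphogenetic proteins (BMPs) that promotes the maturation of synapses.

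The 35 libraries came from cortical astrocytes of Aldh1l1egfp mice aged P30 to P35, in which the astrocyte gene Aldh1l1 drives green fluorescent protein, and all groups, saline controls included, carried this reporter. Mice received lipopolysaccharide (LPS, a bacterial cell wall component) at 5 mg/kg or saline. Females gave 4 saline and 5 LPS libraries at 3 h, 5 saline and 4 LPS libraries at 24 h, and 4 saline and 3 LPS libraries at 72 h. Males were collected at 24 h, with 5 libraries for each treatment. The comparisons address how these cells respond to LPS over time and, at 24 h, in each sex. Whether libraries stand for separate animals is not stated in the labels, and the p-values below therefore measure the spread between libraries, which may be technical. FPKM carry no read counts, and sequencing depth is unknown.

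The libraries summed to between 456417 and 565592 FPKM, and 14508 to 16942 genes reached 1 FPKM. The mitochondrial share, the part of this sum held by genes of the mitochondrial genome, ran from 4.86% to 24.4%, with 8 libraries under 8%. These were female saline 72 h replicates 3 and 4, female LPS 3 h replicates 4 and 5, female LPS 24 h replicate 2 and male LPS 24 h replicates 1, 4 and 5. The deposited numbers had a single-precision format in 11 libraries, all from 24 h, and a double-precision format in 24. All 10 astrocyte markers were in the table and none was at 0 at 24 h. Their sums at 24 h were 6755 to 11075 FPKM in female saline and 9487 to 12010 FPKM in female LPS libraries. In males they were 5605 to 8423 FPKM and 7055 to 10994 FPKM, and the ranges overlapped in both sexes. At 24 h limma called 1 of the 10 higher in each sex, with median log2 fold changes of 0.49 in females and 0.43 in males. Their part in the results was not tested. Of 6 reference genes of reactive astrocytes limma called 4 higher after LPS at 3 h, 6 in each sex at 24 h and 3 at 72 h. Transcripts of other cell types were also present, and their values at 24 h stand beside the results below.

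Of the 4 comparisons of LPS with saline, the test called genes of this set in the 24 h comparisons of both sexes. In females at 24 h 2 of the 8 genes, Sparc and Gpc4, were higher after LPS and 1, Chrdl1, was lower (limma, adjusted p under 0.05 over all genes tested). Of all 19426 genes tested 3.34% were called in that comparison, 2.54% higher and 0.798% lower. In males at 24 h 2 of 8, Sparc and Thbs4, were higher and none was lower, against 8.9% of all genes called, 7.08% higher and 1.82% lower. At 3 h in females limma called none of the 8 (0 at an unadjusted p under 0.05), against 2.38% of all genes. At 72 h it also called none of the 8 (0 at an unadjusted p under 0.05), against 0.0772% of all genes. The authors' deposited DESeq2 table called none of the 8 at 3 h or 72 h. At 24 h the authors' deposited table called Sparc and Gpc4 higher in females and did not call Chrdl1, and in males it called Sparc and Thbs4 higher and Gpc5 and Chrdl1 lower, where it called 4.27% and 19.2% of all genes. The median log2 fold change of the 8 genes was 0.13 at 3 h, 0.29 in females at 24 h, 0.52 in males at 24 h and -0.15 at 72 h. Over all genes these medians were 0.02, 0.05, 0.18 and -0.10.

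**Figure D1:**
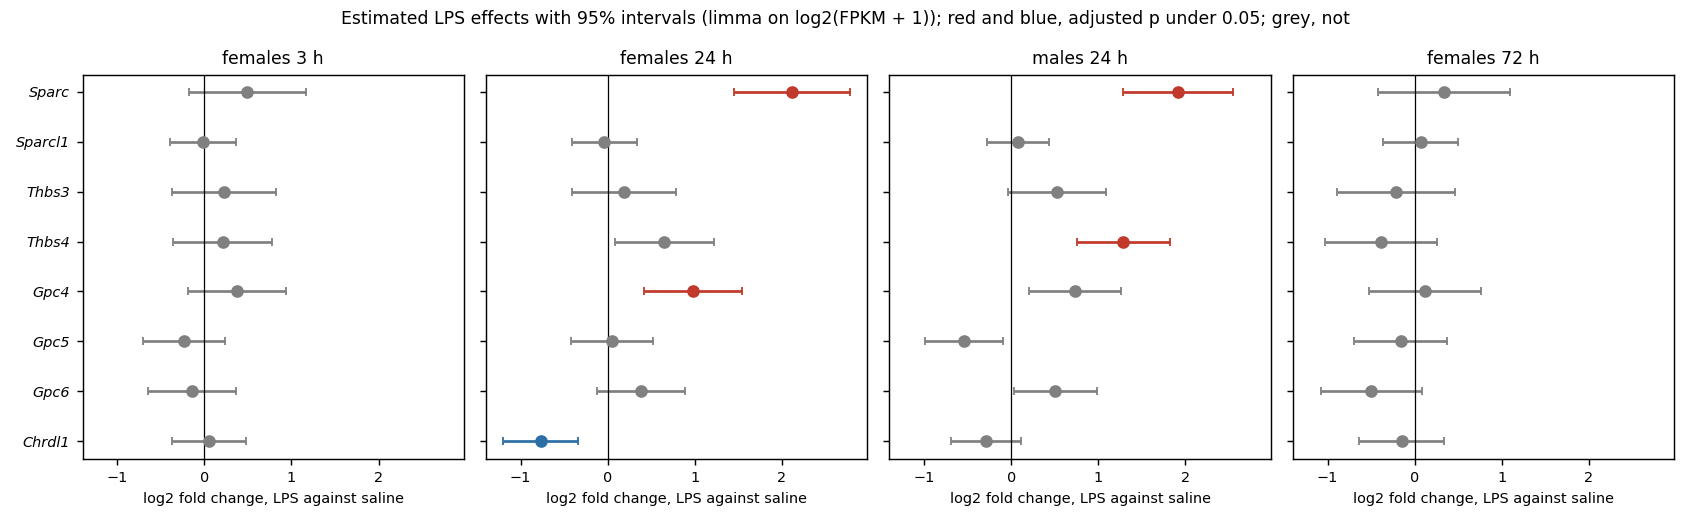
Estimated log2 fold changes of the 8 genes (LPS against saline, on the log2(FPKM + 1) scale) with 95% intervals, one panel for each time and sex; red marks genes called higher, blue lower, and grey genes that did not pass. Sparc stands farthest from 0 in both 24 h panels, at 2.12 in females and 1.91 in males, and no gene is coloured at 3 h or 72 h.

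Sparc encodes SPARC (osteonectin), a matricellular protein that binds collagen and calcium (chromosome 11, 55394500 to 55423183, minus strand, GRCm38/mm10, GENCODE M21). Its level was 48.5, 62.0, 104, 74.4 and 118 FPKM in female saline libraries at 24 h (replicates 1 to 5; mean 81.3 ± 28.9 SD, n = 5). In female LPS libraries at 24 h it was 444, 419, 320 and 218 FPKM (mean 351 ± 103 SD, n = 4). Every LPS library lay above every saline library, and LPS replicate 4 was the lowest of the LPS group. The log2 fold change was 2.12 ± 0.33 (SE; 95% interval 1.45 to 2.78), with an adjusted p of 5.58e-05 in limma. In males the saline libraries were at 62.2, 77.0, 93.7, 92.7 and 62.3 FPKM (mean 77.6 ± 15.5 SD, n = 5). The male LPS libraries were at 343, 236, 149, 372 and 457 FPKM (mean 312 ± 120 SD, n = 5). These groups did not overlap either, and LPS replicates 3 and 2 were the lowest of theirs. The male log2 fold change was 1.91 ± 0.31 (SE; 95% interval 1.28 to 2.54; limma adjusted p = 1.39e-04). The authors' deposited table gave log2 fold changes of 1.83 in females and 1.69 in males for Sparc. Of all genes, 3.32% had every LPS library above every saline library in females at 24 h and 9.55% in males; among the 8 these were Sparc and Gpc4 in females and Sparc and Thbs4 in males.

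At the other times Sparc did not pass the test. Female saline libraries at 3 h were at 86.5, 77.5, 112 and 162 FPKM and LPS libraries at 152, 121, 96.5, 163 and 248 FPKM. The ranges overlapped, and the difference was 0.49 ± 0.33 on the log2 scale (SE, limma adjusted p = 0.595). Female saline libraries at 72 h were at 76.3, 106, 170 and 204 FPKM, and LPS libraries at 226, 116 and 169 FPKM. Here too the ranges overlapped, with a log2 difference of 0.34 ± 0.37 (limma adjusted p = 0.958; 95% interval -0.42 to 1.10). The 72 h interval reached 1.10, below the lower bound of the female 24 h interval. Bounds set side by side are not a test of the difference between times, which follows.

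The test of the difference between times did not pass. The female LPS effect on Sparc was larger at 24 h than at 3 h by 1.62 ± 0.46 (limma adjusted p = 0.117) and smaller at 72 h than at 24 h by a log2 difference of -1.78 ± 0.50 (adjusted p = 0.128). The step from 3 h to 24 h passed when FPKM were rescaled by median of ratios (adjusted p = 0.0319) and with the mitochondrial share as a term (1.59, adjusted p = 0.00176), where the second step was -1.26 (adjusted p = 0.0816). It also passed without female LPS 24 h replicate 4, the LPS library with the lowest Sparc level of that group (1.83, adjusted p = 0.0485), as did the step from 24 h to 72 h (-1.99, adjusted p = 0.0394). Without the 8 low-share libraries the first step was 1.81 (adjusted p = 0.0403) and the second -1.15 (adjusted p = 0.798). The first step did not pass in 25 of 29 alternative settings and the second did not in 26 of 27. The female and male LPS effects differed by 0.20 ± 0.45 (95% interval -0.72 to 1.12; limma adjusted p = 0.957). None of the 8 genes passed in any of the 4 tests of a difference between LPS effects. These were females against males, 24 h against 3 h, 72 h against 24 h and 72 h against 3 h, and of all genes 0%, 0.71%, 0.345% and 0.762% passed in them. At an unadjusted p under 0.05 limma gave 0, 2, 4 and 0 of the 8 genes, and 772, 1665, 2059 and 2003 of all genes.

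**Figure D2:**
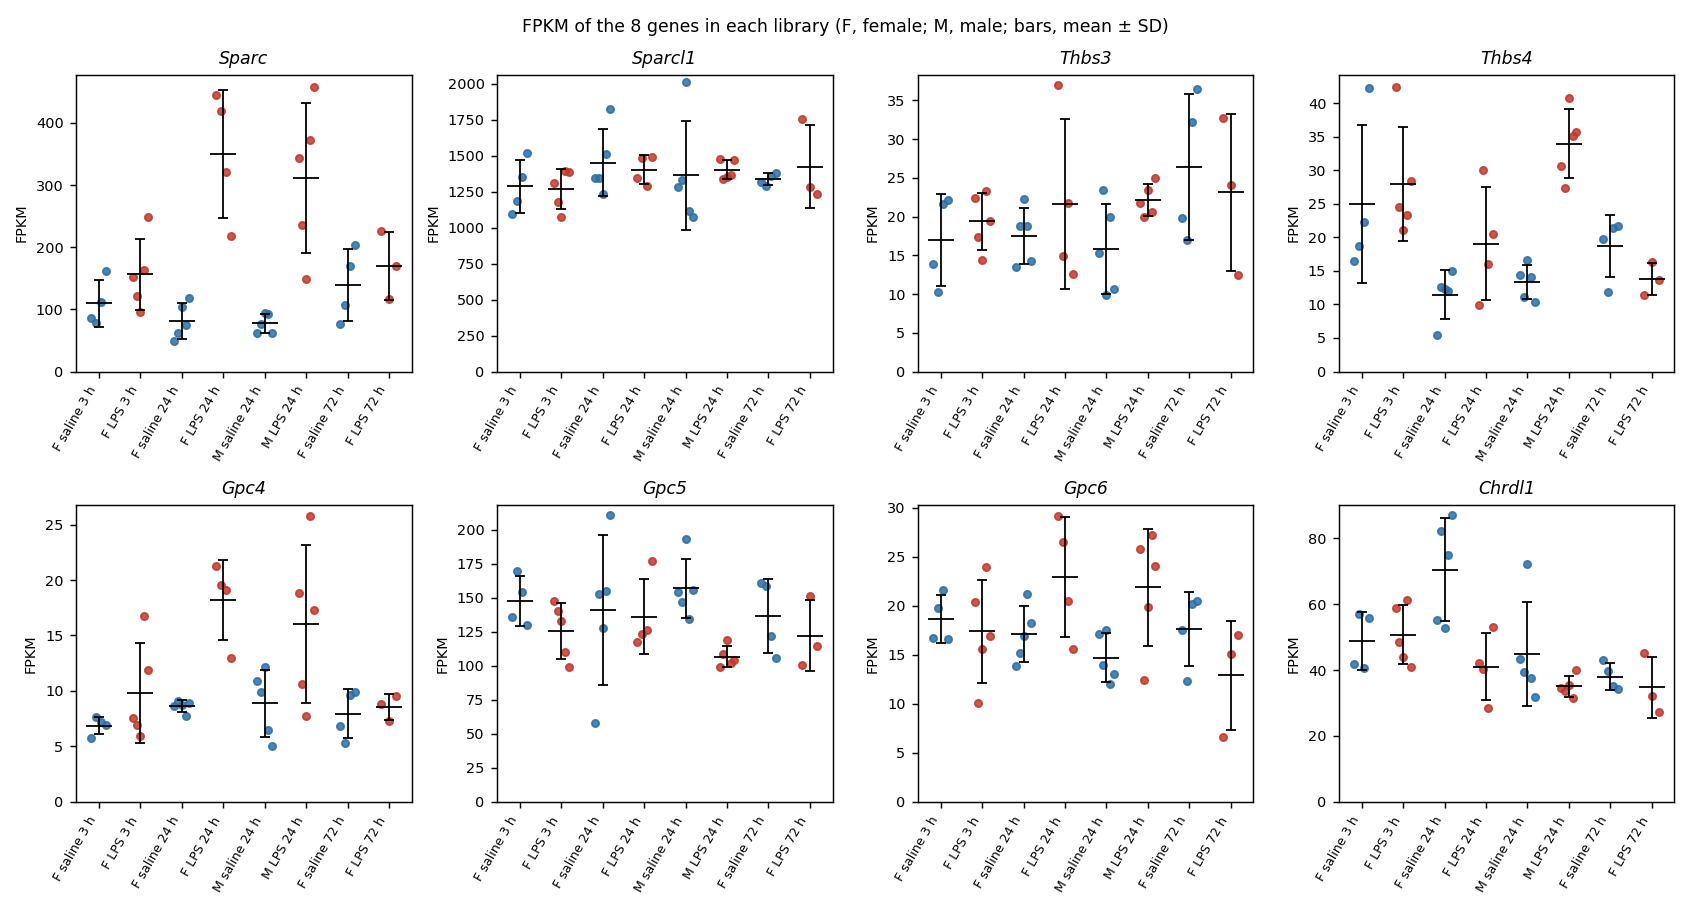
FPKM of each of the 8 genes in every library (points; blue, saline; red, LPS), with the mean and SD of each group, by time and sex. Sparc in 24 h LPS libraries runs from 149 to 457 FPKM, above the 24 h saline libraries at 48.5 to 118 FPKM, while Sparcl1 stays within one band from 1072 to 2014 FPKM.

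Sparc levels were higher in libraries with a low mitochondrial share inside some groups, female saline at 72 h among them. Male saline at 24 h did not follow this. There the library with the lowest share, 16.8%, had the lowest level, 62.2 FPKM, and the library with the highest share, 23.4%, had 92.7 FPKM. In female saline at 72 h the 2 libraries under 8% had 170 and 204 FPKM and the others 76.3 and 106 FPKM. In female LPS at 3 h the 2 libraries under 8% had 163 and 248 FPKM and the others 96.5 to 152 FPKM. In male LPS at 24 h the 3 libraries under 8% had 343, 372 and 457 FPKM and the others 236 and 149 FPKM, while in female LPS at 24 h the 1 such library, at 419 FPKM, was below replicate 1. With the mitochondrial share as a term in the fit, the 24 h log2 fold change of Sparc was 1.75 in females (limma adjusted p = 1.5e-06) and 1.17 in males (adjusted p = 0.00228). Without the 8 low-share libraries it was 2.01 in females (adjusted p = 1.24e-04) and 1.29 in males (adjusted p = 0.0796), with 2 male LPS libraries left. Both fits were chosen after seeing the data. In males at 24 h the share was 16.8% to 23.4% in saline and 4.86% to 16.3% in LPS libraries, without overlap. In females it was 8.88% to 24.4% and 5.57% to 17.3%, with overlap. In males the share and LPS therefore cannot be told apart by these fits, here or for the other genes. Among males, the cut at 8% removed LPS libraries only.

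**Figure D3:**
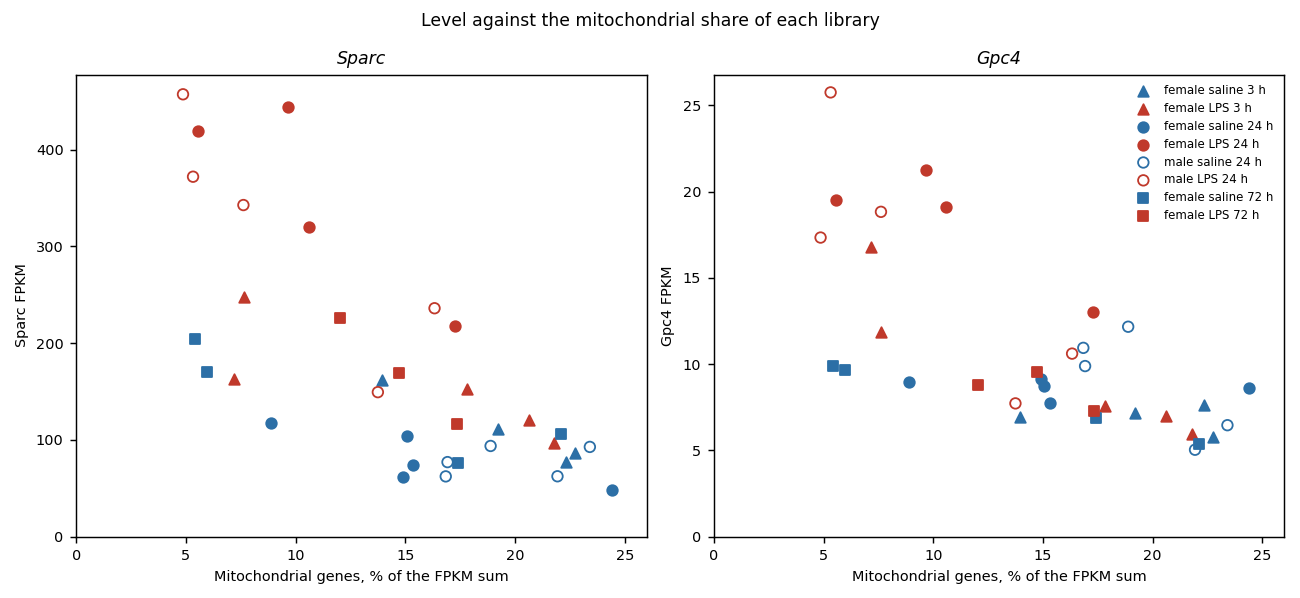
FPKM of Sparc (left) and Gpc4 (right) in each library against the share of the FPKM sum taken by genes of the mitochondrial genome, in percent; colour gives the treatment, shape the time, and open circles are males. The 8 libraries under 8% include 3 of 5 male LPS libraries. Female LPS 24 h replicate 4, with the highest share of its group near 17%, has the lowest Sparc level of that group, at 218 FPKM.

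Within the single-precision libraries alone, the Sparc fold change was 2.51 in females (limma adjusted p = 4.77e-04) and 1.88 in males (adjusted p = 0.0227). Within the double-precision libraries it was 1.94 in males (adjusted p = 0.0472) and 1.21 in females, where 1 LPS library stood against 2 saline libraries and the test did not pass (adjusted p = 1.0). In a bulk sample a change in the number of cells of one type and a change in RNA per cell cannot be told apart. Endothelial cells and microglia also make Sparc. The summed level of 13 endothelial markers at 24 h was 39.2 to 132 FPKM in female saline and 55.2 to 152 FPKM in female LPS libraries, and 65.0 to 180 FPKM in male saline and 90.8 to 227 FPKM in male LPS libraries. That of 15 microglial markers was 51.9 to 281 FPKM in female saline and 106 to 257 FPKM in female LPS libraries, and 74.0 to 273 FPKM in male saline and 167 to 397 FPKM in male LPS libraries. All of these ranges overlapped between saline and LPS, and limma called 2 endothelial markers higher and 1 lower in females and 4 higher in males. Of the microglial markers 1 was lower in females, and 5 were higher and 2 lower in males. At 3 h in females the endothelial sum was 235 to 308 FPKM in saline and 85.3 to 160 FPKM in LPS libraries, without overlap. Limma called 5 of the 13 endothelial markers lower at 3 h. The microglial sum at 3 h was 234 to 473 FPKM in saline and 148 to 265 FPKM in LPS libraries, with 2 markers called lower. At 72 h the microglial sum was 261 to 631 FPKM in saline and 616 to 1027 FPKM in LPS libraries. The endothelial sum at 72 h was 170 to 355 FPKM in saline and 321 to 398 FPKM in LPS libraries. At 24 h the 5 fibroblast markers in the table summed to 6.27 to 9.69 FPKM in female saline libraries. In female LPS libraries they summed to 10.7 to 17.9 FPKM. In males the sums were 7.68 to 12.3 FPKM with saline and 12.5 to 29.3 FPKM with LPS, without overlap in either sex. Of 7 blood leukocyte markers 3 were in the table, at 0.169 to 3.84 FPKM in female saline and 3.03 to 15.3 FPKM in female LPS libraries, and at 0.367 to 2.52 FPKM and 6.97 to 19.5 FPKM in males. The 6 ependymal markers summed to 16.2 to 43.9 FPKM in female saline and 42.4 to 69.4 FPKM in female LPS libraries. In males they summed to 15.7 to 30.7 FPKM and 46.1 to 75.2 FPKM. At 24 h limma called 1 of the 5 fibroblast and 2 of the 3 leukocyte markers higher in each sex. Of the 6 ependymal markers it called 1 higher in males and none in females. Limma called 2 of 5 erythroid markers lower in females, with sums of 150 to 475 FPKM in saline and 49.9 to 153 FPKM in LPS libraries, and none in males. Of 9 oligodendrocyte markers it called 1 higher in males (342 to 1028 FPKM in saline and 592 to 1409 FPKM in LPS libraries) and none in females (207 to 715 and 316 to 436 FPKM). None of 7 oligodendrocyte precursor or 7 mural markers was called in either sex, and their summed levels overlapped, at 34.7 to 119 FPKM and 25.2 to 81.9 FPKM over all 24 h libraries. The smallest mean of any gene in the table was 0.50 FPKM over all libraries, so markers near 0 throughout would be absent from it. Among the markers in the table, none was at 0 in every 24 h library. The part of these cell types in the result was not tested, here or for the other genes below.

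Promoter sequences of the 3 genes that rose at 24 h are shown because limma called Sparc and Gpc4 higher in females and Sparc and Thbs4 in males. They run from 250 bases before to 50 bases after the start of each gene in RefSeq (GRCm38.p6), 5′ to 3′ on the minus strand, with capitals marking GC boxes. The Sparc start in RefSeq lies inside the gene as GENCODE M21 places it, so this window does not cover the GENCODE start. The windows are chr11:55420031-55420330 for Sparc, chrX:52164874-52165173 for Gpc4 and chr13:92794769-92795068 for Thbs4.
Sparc: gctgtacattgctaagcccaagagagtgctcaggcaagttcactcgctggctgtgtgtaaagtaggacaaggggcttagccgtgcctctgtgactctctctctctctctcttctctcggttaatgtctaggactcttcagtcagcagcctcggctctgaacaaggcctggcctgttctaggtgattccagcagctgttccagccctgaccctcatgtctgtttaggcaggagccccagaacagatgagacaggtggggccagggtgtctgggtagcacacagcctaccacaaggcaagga
Gpc4: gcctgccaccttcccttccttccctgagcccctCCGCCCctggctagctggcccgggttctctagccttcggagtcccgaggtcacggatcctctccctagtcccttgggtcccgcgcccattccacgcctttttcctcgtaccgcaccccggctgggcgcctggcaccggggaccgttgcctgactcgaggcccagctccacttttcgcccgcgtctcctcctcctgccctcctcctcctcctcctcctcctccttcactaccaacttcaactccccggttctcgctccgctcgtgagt
Thbs4: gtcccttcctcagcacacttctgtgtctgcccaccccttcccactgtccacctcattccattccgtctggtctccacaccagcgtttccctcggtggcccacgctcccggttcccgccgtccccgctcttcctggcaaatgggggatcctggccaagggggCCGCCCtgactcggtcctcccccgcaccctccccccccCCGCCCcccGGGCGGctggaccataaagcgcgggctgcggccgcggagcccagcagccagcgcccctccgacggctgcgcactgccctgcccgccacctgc
The GC box was searched as GGGCGG on both strands. It was found once in the Gpc4 window, at -217 relative to the start, and at -89, -51 and -42 in the Thbs4 window, and 35.7% of 32851 RefSeq mouse promoters of the same length hold it. The Sparc window held none of the 5 motifs searched. The other motifs were a STAT site (TTCNNNGAA, in 8.30% of all promoters), an AP-1 site (TGANTCA, 7.81%), a TATA box (TATAAA, 13.6%) and a CCAAT box (CCAAT, 37.4%). None of these 4 was found in the Gpc4 or Thbs4 windows, which says only that the letters are not there. The 3 windows differed in base composition, with a GC content of 55.3% in Sparc, 66.7% in Gpc4 and 72.0% in Thbs4 and a median of 52.7% over all promoters. RefSeq promoters matched 5 of the 8 genes.

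Sparcl1 encodes hevin, the SPARC relative that bridges presynaptic neurexin and postsynaptic neuroligin (chromosome 5, 104079111 to 104113733). It had the highest level of the 8 genes, at a mean of 1367 FPKM over the 35 libraries, and the smallest spread, with a coefficient of variation of 14.5% against 67.4% for Sparc. In female saline libraries at 24 h it was at 1346, 1348, 1235, 1512 and 1825 FPKM and in female LPS libraries at 1348, 1485, 1290 and 1495 FPKM. The groups overlapped, and the log2 difference was -0.04 (limma adjusted p = 0.960; 95% interval -0.42 to 0.34). In males the difference was 0.08 (adjusted p = 0.784; 95% interval -0.28 to 0.43), with saline libraries at 1286, 1330, 2014, 1115 and 1075 FPKM and LPS libraries at 1479, 1342, 1354, 1369 and 1469 FPKM. At 3 h and 72 h the log2 differences were -0.02 and 0.07, and the 95% intervals of all 4 comparisons lay between -0.42 and 0.50.

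The ratio of Sparcl1 to Sparc within each library does not depend on how libraries were scaled. It was 11.9 to 27.7 in female saline libraries at 24 h (mean 19.4 ± 6.07 SD, n = 5) and 3.03 to 6.85 in female LPS libraries (mean 4.36 ± 1.71 SD, n = 4). In males it was 12.03 to 21.5 with saline (mean 17.7 ± 3.74 SD, n = 5) and 3.21 to 9.07 with LPS (mean 5.19 ± 2.36 SD, n = 5). The ranges did not overlap in either sex at 24 h. They overlapped at 3 h, with means of 12.4 ± 2.43 (n = 4) and 8.73 ± 2.04 (n = 5), and at 72 h, with means of 11.1 ± 4.75 (n = 4) and 8.71 ± 2.02 (n = 3). The ratio is a description with no test.

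**Figure D4:**
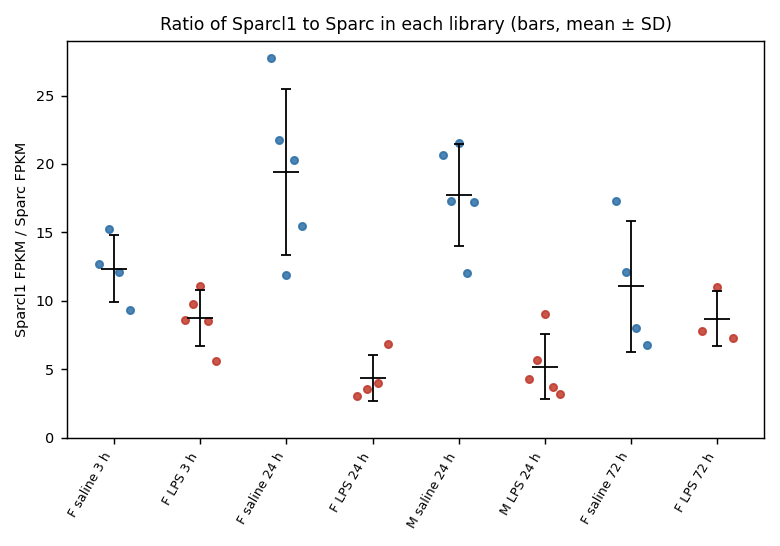
Ratio of Sparcl1 FPKM to Sparc FPKM in each library (blue, saline; red, LPS) with the mean and SD of each group. The 24 h LPS libraries sit between 3.03 and 9.07 and the 24 h saline libraries between 11.9 and 27.7.

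Thrombospondins are secreted glycoproteins that drive the formation of structurally complete but weak synapses, acting through the calcium channel subunit encoded by Cacna2d1. Thbs4 (chromosome 13, 92751590 to 92794818, minus strand) was at 14.5, 11.2, 16.6, 14.1 and 10.4 FPKM in male saline libraries at 24 h (mean 13.4 ± 2.54 SD, n = 5). In male LPS libraries it was at 30.7, 27.4, 40.8, 35.2 and 35.7 FPKM (mean 33.97 ± 5.13 SD, n = 5). Every LPS library lay above every saline library, at a log2 fold change of 1.29 ± 0.26 (SE, limma adjusted p = 0.00216). Beside it, 2 of 11 neuron markers were called higher in males, with a median log2 fold change of 0.32 and overlapping sums of 147 to 260 FPKM in saline and 172 to 342 FPKM in LPS libraries. In females none of the 11 was called, with sums of 129 to 246 FPKM in saline and 123 to 183 FPKM in LPS libraries, and the part of neuronal transcripts in the result was not tested. The male Thbs4 difference passed within the double-precision libraries (1.54, adjusted p = 0.0261) and not within the single-precision libraries (1.01, adjusted p = 0.340). With the mitochondrial share as a term it was 0.94 (adjusted p = 0.0687), and without the 8 low-share libraries 1.28 (adjusted p = 0.0967). In the authors' deposited table Thbs4 had a log2 fold change of 1.08 in males and 0.59 in females, with adjusted p-values of 4.74e-07 and 0.429.

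In females at 24 h Thbs4 did not pass. Saline libraries were at 5.39, 12.6, 12.3, 12.1 and 15.1 FPKM and LPS libraries at 9.88, 30.1, 16.0 and 20.4 FPKM. The ranges overlapped through LPS replicate 1, and the log2 difference was 0.65 ± 0.28 (limma adjusted p = 0.259). The female and male LPS effects differed by -0.64 ± 0.38, which did not pass (adjusted p = 0.945). Among LPS libraries of 24 h Thbs4 was lower in females than in males by a log2 difference of -0.89 ± 0.28 (adjusted p = 0.223), which did not pass either. At 3 h saline libraries stood at 16.5, 18.8, 22.3 and 42.2 FPKM and LPS libraries at 42.5, 24.6, 21.1, 23.3 and 28.4 FPKM, with overlap. Saline libraries of 24 h in females were all below those of 3 h, with a log2 difference of -1.02 ± 0.28 (adjusted p = 0.0741), and 3.44% of all genes had such a gap. That difference passed with median of ratios scaling (adjusted p = 0.0271), without female saline 24 h replicate 5 (adjusted p = 0.0470) and with the mitochondrial share as a term (adjusted p = 0.0151). It did not pass in 17 of 20 alternative settings. At 72 h the LPS libraries, at 11.5, 16.3 and 13.6 FPKM, and the saline libraries, at 19.8, 11.8, 21.4 and 21.7 FPKM, overlapped.

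Thbs3, the pentameric relative of Thbs4 (chromosome 3, 89215180 to 89226837, plus strand), passed in no comparison. Its libraries ranged from 9.92 to 37.0 FPKM, with the highest group mean in female saline at 72 h (26.4 ± 9.46 SD, n = 4) and the lowest in male saline at 24 h (15.9 ± 5.83 SD, n = 5). The male 24 h difference of 0.52 ± 0.28 was the largest of its 4 LPS effects (limma adjusted p = 0.195), and saline and LPS libraries overlapped.

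Glypicans are heparan sulfate proteoglycans held at the cell surface by a lipid anchor and released from it by cleavage. Gpc4, which recruits AMPA receptors to synapses and has that role in culture and in the visual system of mice (chromosome X, 52053021 to 52165252, minus strand), was at 8.63, 9.13, 8.72, 7.73 and 8.93 FPKM in female saline libraries at 24 h (mean 8.63 ± 0.537 SD, n = 5). In female LPS libraries it was at 21.3, 19.5, 19.1 and 12.99 FPKM (mean 18.2 ± 3.61 SD, n = 4). The groups did not overlap, and LPS replicate 4 was again the lowest of its group. The log2 fold change was 0.98 ± 0.28 (SE; 95% interval 0.42 to 1.54; limma adjusted p = 0.0392). The call was lost when any of the 5 saline libraries or LPS replicate 1, 2 or 3 was left out (adjusted p from 0.0562 to 0.153), and the fold change then stayed between 0.90 and 0.997. It held without LPS replicate 4 (1.12, adjusted p = 0.0189). It was 1.09 within the single-precision libraries (adjusted p = 0.0220) and 0.59 within the double-precision libraries (adjusted p = 1.0). In the authors' deposited table Gpc4 in females at 24 h had a log2 fold change of 0.94 with an adjusted p of 8.83e-05.

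In males at 24 h Gpc4 did not pass. Saline libraries were at 10.9, 9.88, 12.2, 6.45 and 5.03 FPKM and LPS libraries at 18.8, 10.6, 7.72, 25.7 and 17.3 FPKM. LPS replicates 2 and 3 lay within the saline range, and the log2 difference was 0.74 ± 0.26 (limma adjusted p = 0.0656). The 3 male LPS libraries above the saline range were the 3 with a mitochondrial share under 8%. With the mitochondrial share as a term the male difference was 0.17 (adjusted p = 0.822) and the female one 0.70 (adjusted p = 0.0386). Without the low-share libraries it was 0.08 in males (adjusted p = 0.904) and 0.94 in females (adjusted p = 0.0149). In males the share itself differed without overlap between treatments, so these fits cannot separate it from LPS. The male difference passed with the number format as a term (0.80, adjusted p = 0.0451), without male saline replicate 3 (adjusted p = 0.0444) and without male LPS replicate 2 (adjusted p = 0.0439) or 3 (adjusted p = 0.0209). It did not pass in 19 of 23 alternative settings. At 3 h LPS replicates 4 and 5, both with a low mitochondrial share, were at 16.8 and 11.9 FPKM and the other 3 at 5.96 to 7.57 FPKM, beside saline libraries at 5.75 to 7.64 FPKM. At 72 h LPS libraries were at 7.25 to 9.51 FPKM and saline libraries at 5.34 to 9.91 FPKM.

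Gpc5 and Gpc6 lie next to each other on the plus strand of chromosome 14 (115092215 to 116525179 and 116925315 to 117976544), 400135 bases apart with 0 protein-coding RefSeq genes between them. They are the longest of the 8 genes, at 1433 and 1051 kb. Gpc5 was the glypican with the highest level, at a mean of 134 FPKM over all libraries, and Gpc6, which like Gpc4 recruits AMPA receptors, was at 18.04 FPKM.

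Gpc5 was at 154, 147, 193, 134 and 155 FPKM in male saline libraries and at 99.1, 109, 119, 102 and 104 FPKM in male LPS libraries. Every LPS library lay below every saline library, which held for 2.12% of all genes, but the log2 difference of -0.54 ± 0.22 did not pass (limma adjusted p = 0.0989). It passed when the fit held only those libraries (adjusted p = 0.0337) and with median of ratios scaling (-0.76, adjusted p = 0.0434). In 21 of 23 alternative settings it did not pass. The authors' deposited table gave -0.77 with an adjusted p of 1.52e-04. In females at 24 h Gpc5 ranged from 58.1 to 211 FPKM with saline and from 117 to 177 FPKM with LPS, at a log2 difference of 0.05 (adjusted p = 0.961). The female and male effects differed by 0.59 ± 0.32, which did not pass (adjusted p = 0.945). Gpc6 was at 17.1, 13.97, 17.5, 12 and 13.03 FPKM in male saline and at 25.8, 12.4, 19.9, 27.2 and 24.1 FPKM in male LPS libraries, which overlapped. The 3 highest were again the libraries with a mitochondrial share under 8%, and the male log2 difference was 0.14 with that share as a term (limma adjusted p = 0.873) and 0.11 without the low-share libraries (adjusted p = 0.899). In the fit of all libraries its log2 difference was 0.51 ± 0.24 in males (adjusted p = 0.144), 0.38 ± 0.25 in females at 24 h (adjusted p = 0.542) and -0.50 ± 0.28 at 72 h (adjusted p = 0.955).

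Chrdl1 (chromosome X, 143285674 to 143394262, minus strand) was the member that limma called lower after LPS, in females at 24 h. The authors' deposited table did not call it there, and in males it called both Chrdl1 and Gpc5 lower. In female saline libraries at 24 h it was at 55.2, 82.1, 52.9, 75.0 and 87.1 FPKM (mean 70.4 ± 15.6 SD, n = 5), and in female LPS libraries at 42.0, 40.2, 28.5 and 53.2 FPKM (mean 41.0 ± 10.1 SD, n = 4). The ranges met only between LPS replicate 4 and saline replicate 3. The log2 fold change was -0.77 ± 0.21 (SE; limma adjusted p = 0.0311). The call was lost when saline replicate 2, 4 or 5 or LPS replicate 1, 2 or 3 was left out (adjusted p from 0.0730 to 0.169). It was also lost when the fit held only the 2 groups (adjusted p = 0.163), within the single-precision libraries (-0.76, adjusted p = 0.163), within the double-precision libraries (-0.59, adjusted p = 1.0) and without the low-share libraries (-0.77, adjusted p = 0.107). In the authors' deposited table Chrdl1 in females at 24 h had a log2 fold change of -0.79 and an adjusted p of 0.0619, and in males -0.63 and 0.0392.

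Male saline libraries had 43.3, 39.4, 72.2, 37.5 and 31.7 FPKM of Chrdl1 and male LPS libraries 34.6, 33.6, 35.4, 31.6 and 40.2 FPKM. They overlapped, at a log2 difference of -0.29 ± 0.20 (limma adjusted p = 0.314). The mean of female LPS libraries at 24 h, 41.0 FPKM, lay between those of female saline at 72 h (38.0) and male saline at 24 h (44.8). Female saline at 3 h had a mean of 48.9 FPKM. The female saline group at 24 h had the highest mean of all 8 groups, 70.4 FPKM. Female saline libraries at 72 h, at 43.0, 39.6, 35.2 and 34.2 FPKM, were all below it, as held for 0.87% of all genes, and Chrdl1 was the 1 member called between these saline groups, against 3.04% of all genes called and 0.118% called lower. That log2 difference was -0.85 ± 0.21 (limma adjusted p = 0.0197), and it was lost without female saline 24 h replicate 2 (adjusted p = 0.0617), 72 h replicate 3 (0.0914) or 72 h replicate 4 (0.123), without the low-share libraries (-0.73, adjusted p = 0.582) and with the number format as a term (adjusted p = 0.0519). Saline groups of different times also differ in whatever else differed between collections, and this cannot be told apart from time. In females 24 h saline libraries were higher than in males by 0.67 ± 0.20, which did not pass (limma adjusted p = 1.0).

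At 3 h Chrdl1 ranged from 40.6 to 57.1 FPKM with saline and from 40.9 to 61.3 FPKM with LPS, and at 72 h LPS libraries were at 45.1, 32.2 and 27.2 FPKM. Neither difference passed (limma adjusted p = 0.943 and 0.961). Between the sexes none of the 8 genes, Gpc4 and Chrdl1 on the X chromosome among them, was called by limma in saline (1 at an unadjusted p under 0.05) or in LPS libraries (1), against 0.0515% and 0.0721% of all genes. Between saline libraries of 3 h and 24 h none of the 8 was called (2 at an unadjusted p under 0.05), against 0.798% of all genes, and between 3 h and 72 h none (0), against 0%.

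In the order of the mean levels over all libraries, Sparcl1 was followed by Sparc (173 FPKM), Gpc5 (134), Chrdl1 (46.3), Thbs4 (20.7), Thbs3 (20.1), Gpc6 (18.04) and Gpc4 (10.7 FPKM). The highest library exceeded the lowest by 9.43 times for Sparc, 7.87 for Thbs4, 5.12 for Gpc4 and 1.88 for Sparcl1. When the 8 groups were ordered by the mean of a gene, all neighbouring groups overlapped in range.

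Genes with the pattern closest to each member were found by the root mean square difference of centred log2(FPKM + 1) over the 35 libraries. For Sparc these were Fth1 (0.32), Ramp2 (0.32) and Tapbpl (0.35), beside a spread of Sparc itself of 0.88 on the same scale. Gpc4 had Atp1b2 (0.25), Eif1 (0.27) and Scara3 (0.27) as its closest genes, with a spread of its own of 0.55. Atp1b2 is also on the list of astrocyte markers. Chrdl1 had Dner (0.26), Slc39a12 (0.27) and Elovl5 (0.28), with 0.41 of its own. The nearest gene to Thbs4 was Nell2 (0.39 beside 0.64 of its own). For Gpc5 it was Galnt4 (0.22 beside 0.34), for Gpc6 Dbt (0.30 beside 0.40), for Thbs3 Ppox (0.28 beside 0.45) and for Sparcl1 Rnf145 (0.17 beside 0.19). The points share libraries and their scaling, and the distances are a description.

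Other genes of these pathways were followed as lists, to be read against the 2.54% of all genes called higher and 0.798% called lower in females at 24 h, the 7.08% and 1.82% in males and the 2.38% called in either direction at 3 h. Of the 6 other SPARC family genes 2 rose in females at 24 h and the same 2 in males. Smoc1, a secreted modular calcium-binding protein, rose by 0.97 ± 0.28 in females (limma adjusted p = 0.0425) and 1.20 ± 0.26 in males (adjusted p = 0.00418). Fstl1, a follistatin-like secreted glycoprotein, rose by 0.86 ± 0.20 (adjusted p = 0.0109) and 0.71 ± 0.19 (adjusted p = 0.0214). The list's median log2 fold change was 0.49 in females and 0.69 in males. Of 6 other thrombospondins and glypicans 2, Gpc1 and Gpc2, were in the table, and neither passed.

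Among 24 genes of heparan sulfate synthesis and glypican shedding 3 rose in each sex at 24 h and none fell. They were Sulf1 (log2 1.28 in females and 0.94 in males) and Sulf2 (1.14 and 1.08), which remove sulfate groups from heparan sulfate outside the cell, and Gpld1 (0.87 and 0.81), a phospholipase that cleaves lipid anchors of the kind that holds glypicans. The median of the 24 was 0.08 in females and 0.34 in males. Sulf1 was low, at a mean of 0.264 FPKM in female saline and 2.29 FPKM in female LPS libraries.

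Of 9 secreted BMP antagonists 4 were in the table, and 1 was lower in females at 24 h. This was Nog, which encodes noggin (log2 -1.02 ± 0.29, limma adjusted p = 0.0463), and it did not pass in males (-0.34). Of 10 measured BMP ligands and receptors 1 passed, Bmp7, which was higher in males (0.78). Of 21 receptors and partners of the secreted proteins 2 rose in females, Nptx2, a neuronal pentraxin that gathers AMPA receptors (1.36 ± 0.26), and Gria1, an AMPA receptor subunit (1.03 ± 0.27). Gria1 also rose in males (1.10 ± 0.26), where 2 of 11 neuron markers were called higher. In males Nptx2 was at 0.71 and did not pass (limma adjusted p = 0.0650).

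Of 17 other astrocyte factors that act on synapses 2 were lower in females at 24 h. Hapln1, a link protein of perineuronal nets, fell by 1.29 on the log2 scale, and Ptn, the growth factor pleiotrophin, fell by 1.24. In males Hapln1 fell by 1.14, Clu (clusterin) rose by 1.002 and Ptn did not pass (-0.70, limma adjusted p = 0.0882). Among 10 proteases and inhibitors acting on matricellular proteins, 3 rose at 3 h, namely Timp1 (2.16), Adamts4 (1.60) and Adamts1 (1.34), a time when none of the 8 genes passed. Adamts4 cleaves proteoglycans and hevin, and Timp1 inhibits metalloproteases. At 24 h 2 of these 10 rose in females, and 4 rose and 1 fell in males. Timp1 was among those that rose at 24 h, by 5.58 in females and 4.41 in males, and it kept its call there in all 22 and 23 alternatives. At 72 h no gene of these lists passed. The lists were not tested as sets. Of the called genes named here, Smoc1 in females lost its call in 16 of 22 alternatives, Nog in 13 of 22, Bmp7 in 12 of 23, Sulf2 in 11 of 22 in females and 10 of 23 in males, Gria1 in 10 of 22 in females, Fstl1 in 10 of 23 in males, Adamts1 in 9 of 23 in males and Clu in 8 of 23. Sulf1 lost it in 6 of 22 alternatives in males and 1 of 21 in females, and Hapln1 in 3 of 23 and 1 of 22. Fstl1, Gpld1 and Ptn in females each lost it in 5 of 22, Smoc1 and Gpld1 in males each in 4 of 23, Gria1 in males in 3 of 23, Timp1 at 3 h in 2 of 20 and Nptx2 in females in 1 of 22.

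**Figure D5:**
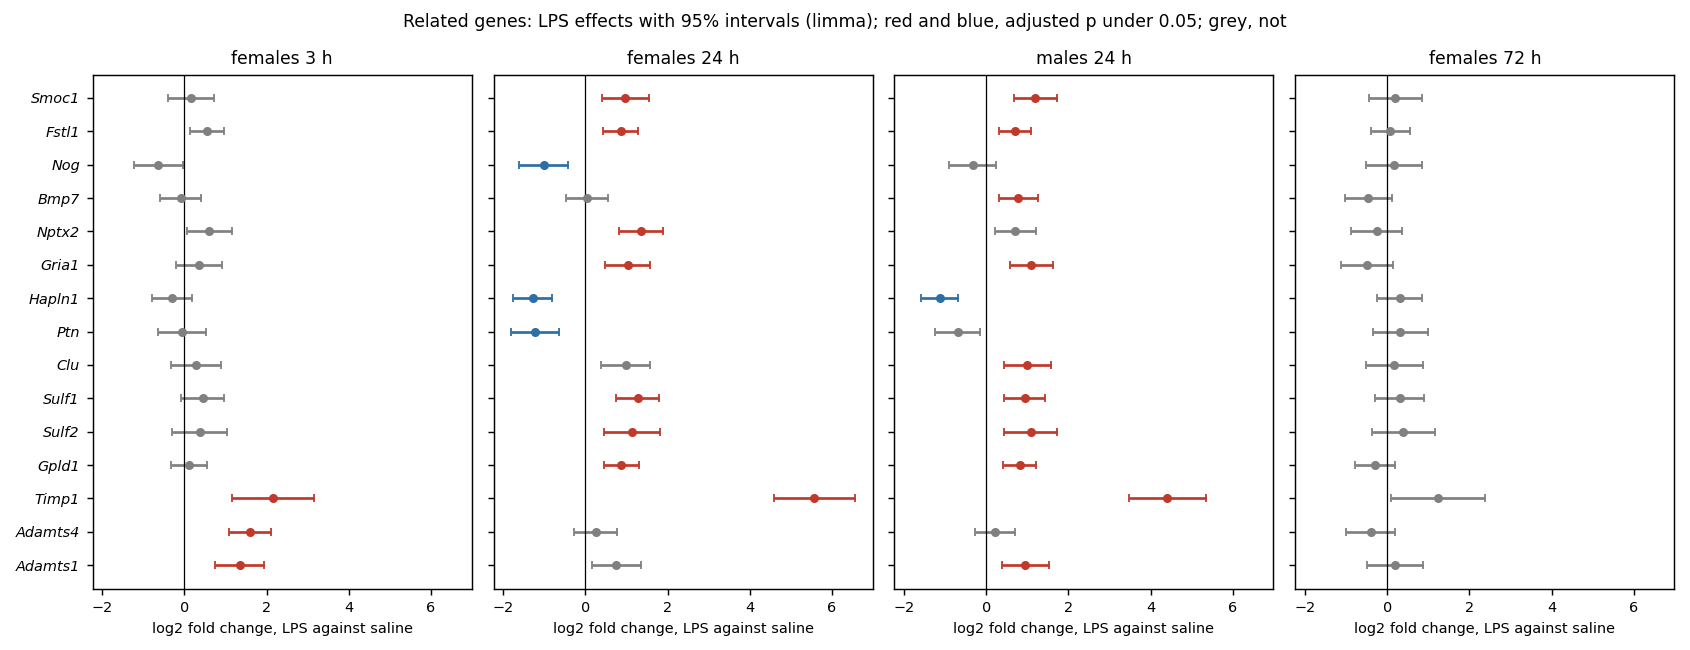
Log2 fold changes (LPS against saline, limma on log2(FPKM + 1)) with 95% intervals for named genes of the related lists, one panel for each time and sex; red, called higher; blue, called lower; grey, not passed. Timp1, Adamts4 and Adamts1 are coloured at 3 h, Timp1 stands farthest from 0 in both 24 h panels, Smoc1, Fstl1, Gria1, Hapln1, Sulf1, Sulf2 and Gpld1 are coloured there too, and no gene is at 72 h.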

How the data were processed

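RNA of sorted astrocytes was amplified with SMART-seq HT, made into libraries with Nextera XT, per the labels' protocols, and sequenced on a NovaSeq. Per the submitters' processing notes, which name HISAT2, StringTie and mm10, the authors deposited one table of FPKM by gene for all libraries. It also holds the authors' log2 fold changes and adjusted p-values, made with DESeq2 per the same notes; versions are not given in the sources used here. Levels of amplified libraries carry amplification noise that FPKM do not show.

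Of 19584 entries 11 repeated an identifier and were dropped, which left 19573 genes. Groups were set from the labels. Genes at 1 FPKM or more in at least 3 libraries (19426) were tested on log2(FPKM + 1) with limma 3.58.1 in R 4.3.3, with 1 coefficient per group over all 35 libraries, an intensity trend and two-sided moderated tests. The pseudocount of 1 makes fold changes of low genes too small. Benjamini-Hochberg adjustment ran separately in each of 13 contrasts, with 0.05 as the threshold for the adjusted p-value. The script was tested on simulated data. No libraries held identical values. A value counted as single precision when it equalled its rounded form within 1e-07, judged on values above 100. All 8 genes are named in each comparison, and of each list at most the 3 called genes with the largest change over the 4 LPS contrasts. The 3 nearest genes were sought among 13056 candidates. The members and lists were chosen with earlier results of these data known. Motifs were searched in RefSeq promoters with Python 3.11.15. Alternatives covered the pseudocount, filters, scaling, the samples fitted, a replicate block, the number format and each library left out.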

Additional observations from a re-analysis of the deposited data

Results flagged for a closer look

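The values of each gene in each group of 4 or 5 libraries, and the ratio of Sparcl1 to Sparc, were examined for a library far from the others, 63 groups in all, and 3 were found. Chance alone marks about 1 in 20 such groups. Sparcl1 in male saline 24 h replicate 3 was at 2014 FPKM, with the other 4 libraries at 1075 to 1330 FPKM. Chrdl1 in the same library was at 72.2 FPKM, with the others at 31.7 to 43.3 FPKM. Gpc5 in female LPS 24 h replicate 4 was at 177 FPKM, with the others at 117 to 126 FPKM. That library also had the lowest Sparc and Gpc4 levels of its group.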

How the results depend on the processing

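No result changed direction while called. In females at 24 h the count of the 8 genes called fell from 3 to 1 with FPKM rescaled to a common sum, to 1 with a replicate block and to 0 in double-precision libraries; it ranged from 1 to 3 as single libraries were left out. In males it fell from 2 to 1 within single-precision libraries, to 1 with the mitochondrial share as a term and to 0 without libraries under 8% mitochondrial share. For the difference between 24 h and 3 h the count rose from 0 to 1 with median of ratios scaling, with the mitochondrial share as a term and without the low-share libraries, and ranged from 0 to 1 with single libraries left out. The same range, 0 to 1, held for the difference between 72 h and 24 h, for saline at 24 h against 3 h and for saline at 72 h against 24 h. Saline at 24 h against 3 h rose to 1 with median of ratios scaling and with the mitochondrial share as a term. Saline at 72 h against 24 h fell to 0 with only the groups compared, with the number format as a term and without the low-share libraries. The cause was not tested. Over all genes the count called ranged from 18 to 1053 in females at 24 h (649 as reported), from 146 to 2769 in males (1729), from 301 to 527 at 3 h (462), from 2 to 40 at 72 h (15) and from 0 to 904 between saline at 72 h and 24 h (591).

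Replicate numbers gave no clear sign of pairing: 5 of 16 same-numbered pairs correlated above 0.1 (range -0.404 to 0.372). Of the saline libraries, 2 correlated best with the LPS library of their own number. The check cannot exclude pairing, because other differences between libraries also enter these correlations. With the replicate block Sparc in females was 2.27 (limma adjusted p = 7.05e-04), Gpc4 0.99 (0.120) and Chrdl1 -0.69 (0.0985). Rescaling to a common sum moved the median of all genes by 0.11 and median of ratios by -0.15 in males, and the latter by 0.11 at 72 h. With FPKM alone, counting error could not be separated from the spread between libraries.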
